A study of Mus musculus with 10 samples.

Results

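The interferon-inducible GTPases described here are 10 genes taken by symbol from a table of 57010 gene identifiers: the guanylate-binding proteins (GBPs) Gbp2, Gbp3, Gbp5, Gbp6 and Gbp7, and the immunity-related GTPases (IRGs) Igtp, Irgm1, Irgm2, Iigp1 and Ifi47. All 10 were found in the table. RNA was measured in retinas of mice aged 6 to 8 weeks that were killed 14 days after an injection into the vitreous of the eye. One group of 5 mice received AAV2-GFP, an adeno-associated virus (AAV) in the AAV2 capsid that carries green fluorescent protein, and the other group of 5 mice received AAV206-GFP, the same reporter in the capsid AAV206, which the title of the study presents as a vector for the retinal pigment epithelium. Strain, sex, vector dose, promoter and whether 1 or both eyes were taken are not given in the sources used here. No uninjected or vehicle-injected retina was analysed here, so every difference below lies between the vectors and has no untreated baseline.

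GBPs and IRGs are large GTPases that most cells hold at low levels and induce strongly when interferon reaches them. Interferon gamma signals largely through GAS elements in the promoters of its targets, and type I interferons largely through interferon-stimulated response elements (ISREs), which a complex that holds IRF9 binds. The proteins assemble on membranes of pathogen-containing vacuoles, and several GBPs promote inflammasome activation. Among the IRGs, Igtp, Irgm1 and Irgm2 belong to the regulatory class that protects the cell's own membranes, while Iigp1 and Ifi47 belong to the effector class that is loaded onto vacuoles.

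The retinas given AAV206-GFP held less RNA of these GTPases on average, and the difference lay in 2 of the 5 AAV2-GFP retinas. In AAV2-GFP replicates 1 and 4 all 10 genes were above every AAV206-GFP library, at 7.30 to 55.5 times the AAV206-GFP mean. AAV2-GFP replicates 2 and 5 lay at 0.485 to 1.52 times that mean, and replicate 3 lay between these pairs for most of the genes. With edgeR's quasi-likelihood test and Benjamini-Hochberg adjustment over all 15539 genes tested, 8 of the 10 GTPases were lower with AAV206-GFP at an adjusted p-value under 0.05 (here termed called). The other two, Iigp1 and Ifi47, were too low in most libraries to pass the filter on counts. Over all genes tested, 5.30% were called lower, 5.95% higher and 11.2% in either direction. The median log2 fold change was -2.87 over the 8 tested GTPases and -0.0095 over all tested genes.

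The libraries held 10989843 to 12752604 counts each, and levels are given as CPM, the count relative to the TMM-scaled size of the library. At this depth 3 counts correspond to 0.232 to 0.274 CPM, taken as the floor under which levels are not distinguished. Rod markers identified the tissue as retina in all 10 libraries, with 6 rod genes summing to 51842 to 60997 CPM. AAV2-GFP replicate 1 stood apart in leukocyte markers. Its 13 T and NK lymphocyte markers summed to 28.0 CPM against 0.449 to 1.37 CPM in the other 9 libraries, and its 12 microglia and macrophage markers summed to 327 CPM against 42.2 to 77.2 CPM. In bulk tissue a smaller number of cells of a type and less RNA per cell cannot be told apart.

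The genes fall into clusters in the genome. In GENCODE M21 on GRCm38, Gbp5 (ENSMUSG00000105504) lies on chromosome 3 at 142493978 to 142522344. Gbp7 (ENSMUSG00000040253, 142530342 to 142550149), Gbp3 (ENSMUSG00000028268, 142560026 to 142573209) and Gbp2 (ENSMUSG00000028270, 142620602 to 142638008) follow it on the same plus strand. Gbp6 (ENSMUSG00000104713) lies on the minus strand of chromosome 5 at 105270702 to 105293698. Chromosome 11 holds Irgm1 (ENSMUSG00000046879, minus strand, 48861968 to 48871683), Ifi47 (ENSMUSG00000078920, plus strand, 49076587 to 49096974), Igtp (ENSMUSG00000078853, plus strand, 58199556 to 58207591) and Irgm2 (ENSMUSG00000069874, plus strand, 58199618 to 58222782). For Iigp1 (ENSMUSG00000054072) no position is given here. All 10 are protein-coding, and counts cover whole genes. The annotated spans of Igtp and Irgm2 overlap on the same strand. The deposited values of both genes carried decimals in 0 of 10 libraries. How reads from the shared stretch were assigned was not tested.

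Promoter sequence from RefSeq (GRCm38.p6, 250 bases before to 50 after an annotated start) was found for 8 of the 10 genes, all but Gbp6 and Iigp1. It is shown as background on the family and not to account for the levels in these retinas. Both strands were searched for a GAS match, TTCNNNGAA (its own reverse complement), and for an ISRE core match, GAAA repeated once after a gap of any 2 bases, which reads as TTTC repeated in the same way on the opposite strand. The 8 genes have 9 promoter windows, as Gbp3 has a pair of starts. An ISRE match was present in 7 of the 9 windows and a GAS match in 4, those 4 carried both, and 2 carried neither. Among 32851 promoters of the same length, 3.44% held an ISRE match, 8.30% a GAS match and 0.454% both. The 10 genes were chosen as interferon-inducible, so a share above this background comes with that choice and is not a result of these data. A match describes letters in this window and is not evidence of binding. In the stretches below, each written 5′ to 3′ on the strand of its gene, capitals mark the matches.
Gbp5: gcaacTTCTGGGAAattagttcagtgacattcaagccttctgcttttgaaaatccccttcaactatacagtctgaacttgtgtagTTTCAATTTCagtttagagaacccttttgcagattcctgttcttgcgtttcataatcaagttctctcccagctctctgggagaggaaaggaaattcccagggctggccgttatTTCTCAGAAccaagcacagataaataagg
Gbp7: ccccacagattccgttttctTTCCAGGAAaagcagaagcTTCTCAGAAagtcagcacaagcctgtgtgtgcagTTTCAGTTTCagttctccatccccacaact
Gbp3: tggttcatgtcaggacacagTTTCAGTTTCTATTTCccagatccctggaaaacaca
Gbp2: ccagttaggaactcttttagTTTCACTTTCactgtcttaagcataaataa
Irgm1: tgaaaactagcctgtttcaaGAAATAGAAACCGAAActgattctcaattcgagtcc
Igtp: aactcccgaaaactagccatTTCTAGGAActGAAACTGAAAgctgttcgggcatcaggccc
Irgm2: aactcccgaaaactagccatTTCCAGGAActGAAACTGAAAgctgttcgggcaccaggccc

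The Gbp5 stretch (chr3:142496684-142496910, plus strand) has GAS matches 245 and 52 bases before the RefSeq start and an ISRE match 165 bases before it. In Gbp7 (chr3:142530210-142530312, plus strand) the GAS matches lie 106 and 87 bases and the ISRE match 53 bases before the start. The Gbp3 stretch (chr3:142559979-142560034, plus strand) has ISRE matches 45 and 39 bases before the start, which overlap each other. The other Gbp3 start has no match in its window. In Gbp2 (chr3:142620584-142620633, plus strand) the single ISRE match begins 59 bases before the start. Irgm1 (chr11:48871415-48871470, minus strand) carries overlapping ISRE matches 30 and 24 bases before its start. Igtp (chr11:58199491-58199551, plus strand) and Irgm2 (chr11:58214882-58214942, plus strand) share nearly the same block, a GAS match followed by an ISRE match, with 59 of 61 printed bases identical. The block begins 45 bases before the start in Igtp and 75 bases before it in Irgm2. No GAS match overlapped an ISRE match. The Ifi47 window held neither motif, which says only that these letters are not in it.

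**Figure D1:**
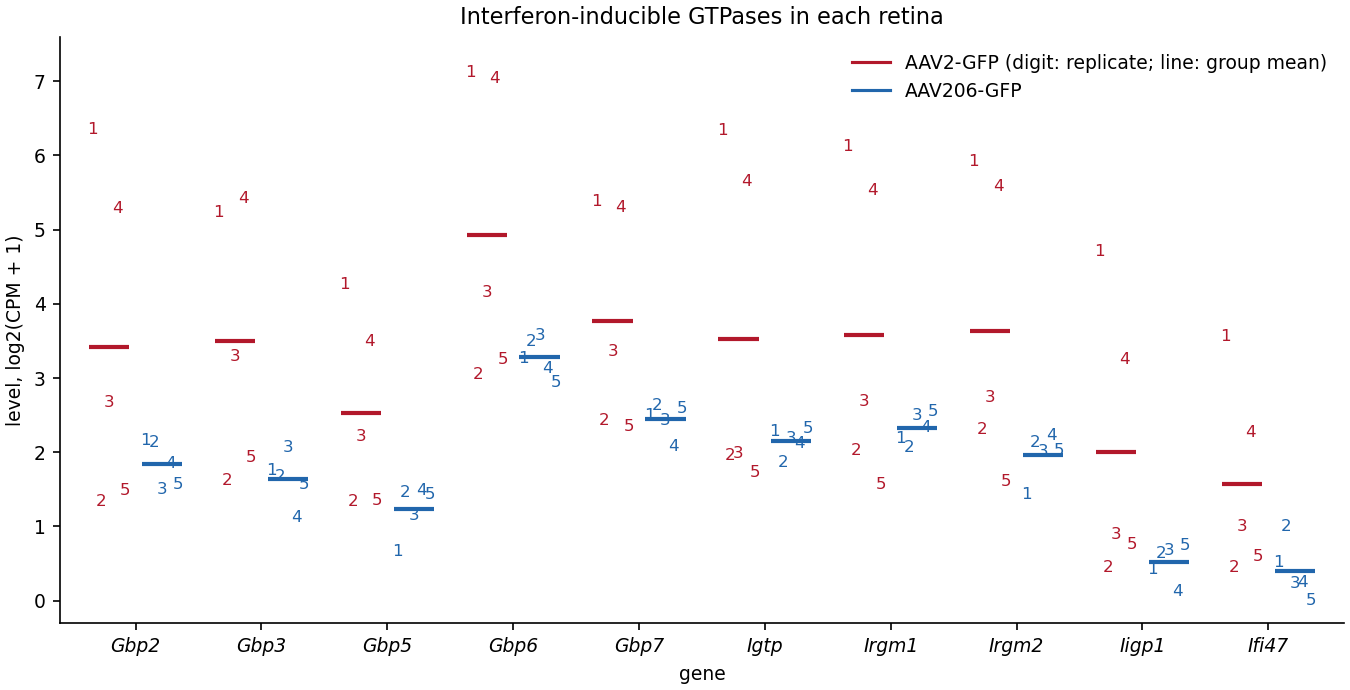
Level of each GTPase in each retina, as log2(CPM + 1) on the vertical axis, with genes along the horizontal axis; digits are the replicate numbers of AAV2-GFP (red) and AAV206-GFP (blue) mice and bars are group means. AAV2-GFP replicates 1 and 4 lie above all AAV206-GFP mice for all 10 genes, while replicates 2 and 5 lie among or below them for 9 of the 10 genes each.

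The GBPs were highest in replicates 1 and 4 of the AAV2-GFP group. Values of a group are listed in the order of its replicate numbers, 1 to 5. Gbp2, which is recruited to pathogen vacuoles and promotes inflammasome activation, stood at 80.4, 1.53, 5.34, 38.2 and 1.79 CPM with AAV2-GFP and at 3.45, 3.37, 1.81, 2.60 and 1.95 CPM with AAV206-GFP. The groups overlapped, since replicates 2 and 5 of AAV2-GFP were below all AAV206-GFP mice. The means were 25.4 ± 34.3 and 2.64 ± 0.768 CPM (SD, n = 5). The log2 ratio of AAV206-GFP to AAV2-GFP fitted by edgeR was -3.26, with a standard error (SE) of 0.86 and an adjusted p of 0.0251.

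Gbp3, its neighbour in the chromosome 3 cluster, had 36.5, 2.07, 8.74, 41.6 and 2.82 CPM with AAV2-GFP against 2.36, 2.19, 3.19, 1.17 and 1.95 CPM with AAV206-GFP. Replicate 4 was the highest retina for this gene, and replicates 2 and 5 lay within the AAV206-GFP range. Mean levels were 18.4 ± 19.2 and 2.17 ± 0.730 CPM (SD, n = 5), and the fitted log2 fold change was -3.07 (SE 0.69, edgeR adjusted p = 0.0102). Gbp3 was the GTPase with the smallest adjusted p-value of the 8 tested.

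For Gbp5, a GBP linked to NLRP3 inflammasome assembly, the AAV2-GFP mice had 18.2, 1.53, 3.63, 10.2 and 1.54 CPM and the AAV206-GFP mice 0.589, 1.73, 1.21, 1.79 and 1.70 CPM. Replicate 3 was above the AAV206-GFP range but well under replicates 1 and 4. Group means were 7.02 ± 7.18 and 1.40 ± 0.512 CPM (SD, n = 5), with a log2 fold change of -2.32 (SE 0.60, edgeR adjusted p = 0.0224).

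Gbp6 was the most abundant of the 10 genes in CPM. Its levels were 138, 7.28, 16.8, 131 and 8.54 CPM with AAV2-GFP and 8.58, 10.2, 10.95, 7.71 and 6.70 CPM with AAV206-GFP. Replicates 1 and 4 were nearly equal for this gene. The means of 60.3 ± 67.8 and 8.83 ± 1.75 CPM (SD, n = 5) gave a log2 fold change of -2.77 (SE 0.70, edgeR adjusted p = 0.0199). The deposited values of Gbp6 carried decimals in 9 of 10 libraries, a sign of reads divided with a gene of similar sequence, so its level is uncertain.

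Gbp7 has been linked to the assembly of the phagocyte oxidase on vacuoles. It had 40.8, 4.40, 9.20, 38.2 and 4.10 CPM with AAV2-GFP and 4.63, 5.20, 4.40, 3.23 and 5.00 CPM with AAV206-GFP. Its log2 fold change of -2.10 (SE 0.55, edgeR adjusted p = 0.0233) was the smallest of the 8, from 19.3 ± 18.5 to 4.49 ± 0.772 CPM (SD, n = 5). Decimals in 5 libraries leave this level uncertain as well.

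The regulatory IRGs were high in the same retinas. Igtp, also named Irgm3, stood at 79.7, 2.87, 2.94, 49.0 and 2.31 CPM with AAV2-GFP and at 3.87, 2.65, 3.54, 3.32 and 3.99 CPM with AAV206-GFP. It was the 1 gene of the 10 for which replicate 3 was not above the AAV206-GFP mice. The means were 27.4 ± 35.5 and 3.47 ± 0.532 CPM (SD, n = 5), and the fitted log2 fold change was -2.97 (SE 0.83, edgeR adjusted p = 0.0321).

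Irgm1, a regulatory IRG also tied to autophagy and mitochondrial quality control, had 68.4, 3.05, 5.41, 45.2 and 1.97 CPM with AAV2-GFP and 3.53, 3.19, 4.66, 4.04 and 4.83 CPM with AAV206-GFP. Replicates 2 and 5 of AAV2-GFP were below all AAV206-GFP mice. Its log2 fold change was -2.61, between means of 24.8 ± 30.4 and 4.05 ± 0.704 CPM (SD, n = 5; SE 0.76, edgeR adjusted p = 0.0369).

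Irgm2 followed the same order, with 59.2, 3.95, 5.65, 47.1 and 2.05 CPM against 1.68, 3.37, 3.02, 3.68 and 3.05 CPM. Here 4 of the 5 AAV2-GFP mice were above every AAV206-GFP mouse, and replicate 5 was within their range. The means of 23.6 ± 27.4 and 2.96 ± 0.763 CPM (SD, n = 5) gave a log2 fold change of -2.99 (SE 0.75, edgeR adjusted p = 0.0186).

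The effector IRGs were close to the floor outside AAV2-GFP replicates 1 and 4 and did not pass the filter on low counts. Iigp1 (also Irga6), an effector IRG that coats parasite vacuoles, was at 25.0, 0.359, 0.851, 8.47 and 0.684 CPM with AAV2-GFP. In the AAV206-GFP mice it was at 0.337, 0.547, 0.604, 0.0897 and 0.678 CPM. Group means were 7.08 ± 10.6 and 0.451 ± 0.239 CPM (SD, n = 5). Ifi47 (also Irgd) was at 10.8, 0.359, 1.01, 3.79 and 0.513 CPM with AAV2-GFP and at 0.421, 1.00, 0.172, 0.179 and 0 CPM with AAV206-GFP, so 3 of its AAV206-GFP values were under the floor. Its means were 3.29 ± 4.40 and 0.355 ± 0.392 CPM (SD, n = 5). In edgeR without the filter, in which 3.42% of genes were called lower, Iigp1 had a log2 fold change of -3.93 (SE 0.78, edgeR adjusted p = 0.00200) and Ifi47 one of -3.18 (SE 0.74, edgeR adjusted p = 0.00768).

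The 10 genes differed in level by length-scaled abundance even where they were low. Among AAV206-GFP retinas, CPM per kilobase of annotated exon was highest for Igtp (1.72 ± 0.263, SD, n = 5), followed by Gbp6 (1.48 ± 0.294), Gbp2 (1.05 ± 0.305), Irgm2 (0.803 ± 0.207) and Gbp7 (0.800 ± 0.137). Irgm1 (0.697 ± 0.121), Gbp3 (0.665 ± 0.224), Gbp5 (0.212 ± 0.0771), Ifi47 (0.144 ± 0.159) and Iigp1 (0.0775 ± 0.0410) came after them. Neighbours in this order differed by more than the larger SD of the pair at 2 steps, from Gbp6 to Gbp2 and from Gbp3 to Gbp5. In AAV2-GFP retinas Igtp was again highest, at 13.5 ± 17.5 CPM per kilobase (SD, n = 5), and Gbp5 lowest, at 1.06 ± 1.08. No pair of neighbours there differed by more than its spread.

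The spread between mice was much wider with AAV2-GFP. Among the 8 tested GTPases the median SD of log2(CPM + 1) was 2.00 for AAV2-GFP mice and 0.284 for AAV206-GFP mice, where all tested genes had 0.158 in both groups. Summed over the 10 genes, the AAV2-GFP mice held 557, 27.4, 59.5, 412 and 26.3 CPM, and the AAV206-GFP mice 27.8 to 33.5 CPM. Replicates 2 and 5 of AAV2-GFP therefore had sums just under the lowest AAV206-GFP retina. For none of the 10 genes were all AAV206-GFP mice below all AAV2-GFP mice, an arrangement found in 4.36% of the tested genes.

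Counted by mouse, AAV2-GFP replicates 1 and 4 exceeded every AAV206-GFP mouse in 10 of 10 genes. Over all tested genes the shares were 22.6% for replicate 1 and 26.0% for replicate 4. Replicate 3 did so in 9 of 10 genes (29.5% of all tested genes), replicate 2 in 1, Irgm2 (19.0%), and replicate 5 in 1, Iigp1 (20.7%). Relative to the AAV206-GFP mean, the median level over the 10 genes was 18.4 times in replicate 1, 14.3 times in replicate 4 and 1.96 times in replicate 3. It was 0.890 times in replicate 2 and 0.940 times in replicate 5.

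The calls depended on the test and on single retinas. No GTPase was called with edgeR's robust dispersions (adjusted p = 0.0764 to 0.150), where 5.22% of all genes were called lower, or with limma-voom (adjusted p = 0.141 to 0.399), where 4.77% were. DESeq2 called all 10 GTPases and 6.13% of all genes lower. Of the 8 GTPases, 5 were called without AAV2-GFP replicate 1 and 1, Gbp3, without replicate 4. The shares of all tested genes called lower in these fits were 5.80% and 2.74%. Leaving out AAV2-GFP replicate 2 or 5 gave 9 calls each, because Ifi47 then passed the filter, and leaving out replicate 3 gave 8, where 5.44%, 4.09% and 3.60% of all genes were called lower. Without AAV206-GFP replicates 1, 2, 3, 4 or 5 in turn, the counts were 2, 4, 3, 3 and 5. Calls over all genes were also fewer in these fits, at 3.88%, 2.99%, 3.25%, 2.83% and 5.10% lower in the same order, against 5.30% with all mice. Without both AAV2-GFP replicates 1 and 4 no GTPase was called (2.85% of all genes were called lower), and the log2 fold changes ranged from -1.08 for Gbp3 to 0.35 for Igtp (edgeR adjusted p = 0.124 and 0.436). Igtp and Irgm1 (0.21, edgeR adjusted p = 0.726) then had the opposite sign. A two-sided exact permutation test on log2(CPM + 1) that went through every relabelling of the mice, chosen after the data were seen, gave unadjusted p-values of 0.0635 for Gbp3 and Ifi47 to 0.429 for Igtp. This test weights all mice equally and can give no p below 0.00794. Over all tested genes, 3860 had an exact permutation p under 0.05 without adjustment and 0 after it.

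**Figure D2:**
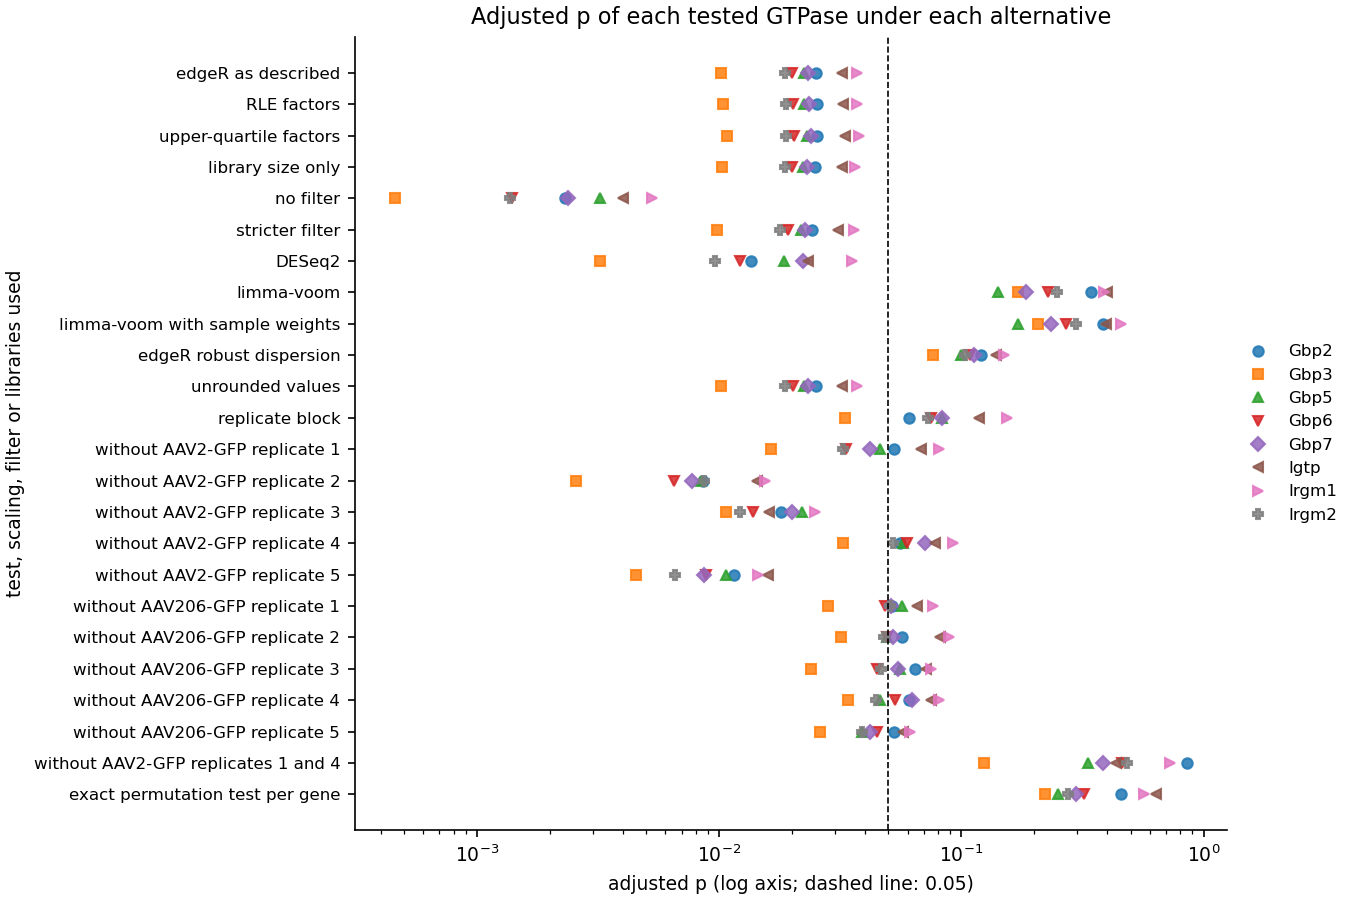
Adjusted p-value of each of the 8 tested GTPases (log axis) under each processing setting, with the threshold of 0.05 marked. Points of edgeR with other scalings or filters and of DESeq2 lie under the threshold, whereas those of limma-voom, of edgeR with robust dispersions and of the fit without AAV2-GFP replicates 1 and 4 lie above it.

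The pair of high retinas differed from each other. The level in replicate 1 was 2.96 times that in replicate 4 for Iigp1 (95% counting interval 2.35 to 3.74), 2.84 times for Ifi47 (2.01 to 4.07), 2.11 times for Gbp2 (1.88 to 2.36) and 1.77 times for Gbp5 (1.41 to 2.23). Igtp (1.63, 1.47 to 1.81), Irgm1 (1.52, 1.36 to 1.69) and Irgm2 (1.26, 1.12 to 1.41) were also higher in replicate 1. For Gbp7 (1.07, 0.935 to 1.22) and Gbp6 (1.06, 0.985 to 1.13) the interval included 1, and for Gbp3 the ratio was 0.878 (0.769 to 1.00). In all, 7 of the 10 intervals lay above 1 and 0 below it. The intervals cover counting error in these 2 libraries only and do not compare conditions. Over the tested genes, replicates 1 and 4 also differed beyond sampling noise (chi-square per degree of freedom 15.4). The share of all genes with an interval off 1 was not computed, so these counts have no background.

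Genes chosen as leaning to 1 interferon type split these retinas in opposite directions. Of 15 interferon gamma targets with counts, 13 were higher in replicate 1 than in replicate 4 beyond counting error and 0 lower, with a median ratio of 3.66. Of 21 type I interferon targets, 3 were higher in replicate 1 and 13 lower, with a median ratio of 0.609. The median ratio of the 10 GTPases, 1.57, lay between these lists. The interferon gamma list includes MHC class II genes, and replicate 1 also had more leukocyte marker RNA than replicate 4. Its T and NK markers summed to 28.0 against 1.37 CPM, and its microglia and macrophage markers to 327 against 74.3 CPM. The parts of interferon type and of cell content in this split were not tested. Cd74, the invariant chain of MHC class II, stood in replicate 1 at 63.1 times its level in replicate 4 (46.9 to 87.1), while Ifit1, an antiviral RNA-binding protein, stood at 0.237 times (0.193 to 0.288). Replicates 3 and 2 were compared the same way: 6 of 10 GTPases were higher in replicate 3, with a median ratio of 2.34. Gbp3 stood in replicate 3 at 4.23 times and Gbp2 at 3.49 times the level in replicate 2, whereas Igtp had a ratio of 1.02 (0.622 to 1.69). Replicates 2 and 3 differed beyond sampling noise over the tested genes as well (chi-square per degree of freedom 16.2). No share over all genes was computed beside the counts of this paragraph.

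**Figure D3:**
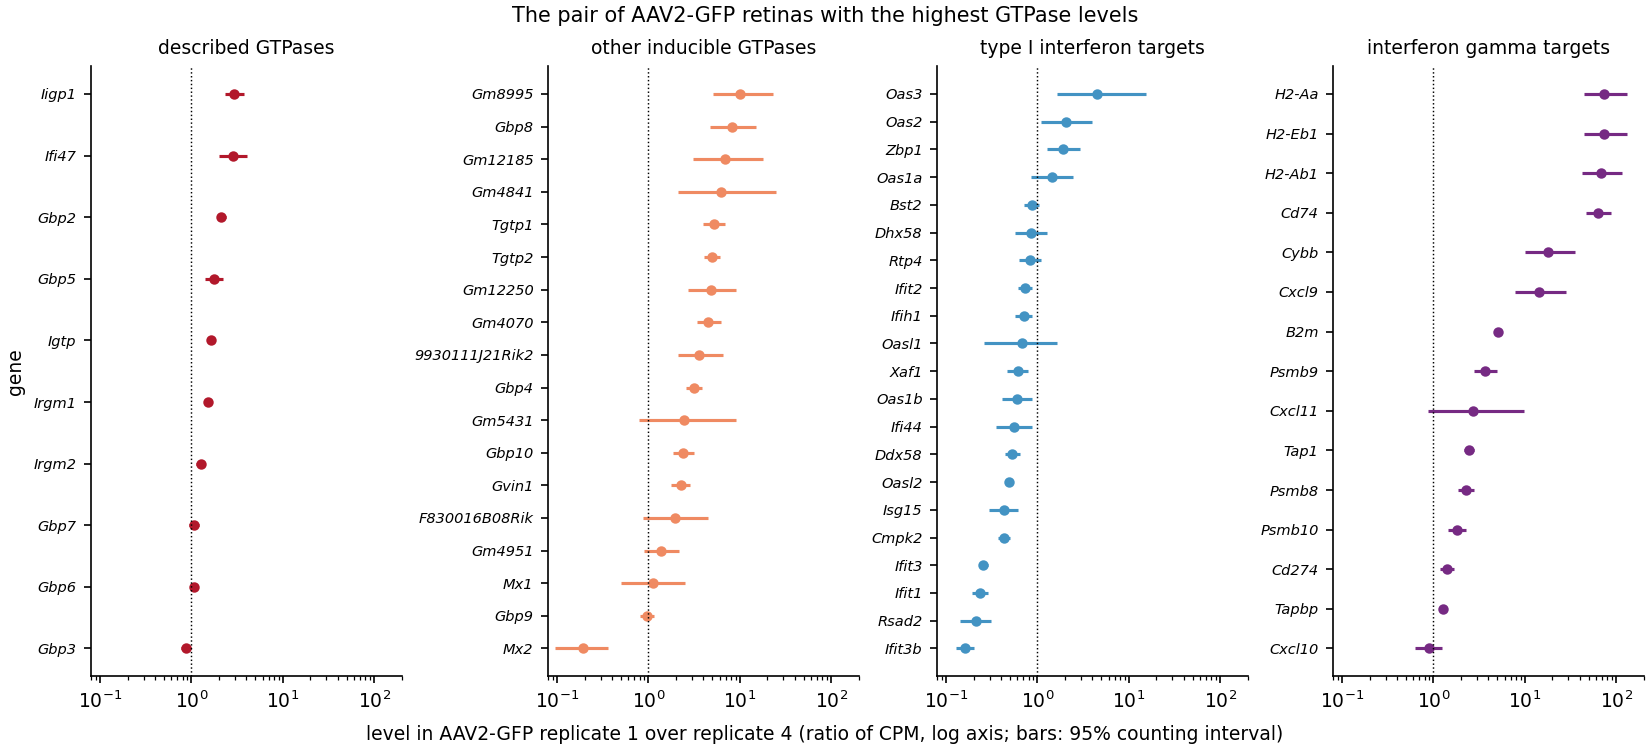
Ratio of the level in AAV2-GFP replicate 1 to that in replicate 4 for each gene (log axis, bars are 95% counting intervals), for the 10 GTPases, other inducible GTPases, type I interferon targets and interferon gamma targets; the dotted line marks equal levels. The GTPases spread from 0.878 to 2.96, most type I targets lie left of the line and most interferon gamma targets right of it.

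Sums of T and NK, B cell and blood myeloid markers were far higher in replicate 1 than in replicate 4. Those of microglia and macrophage markers were above the AAV206-GFP range in replicates 1, 3 and 4. In replicate 4 the 13 T and NK markers summed to 1.37 CPM against 0.848 to 1.35 CPM with AAV206-GFP. There 8 were at 0 and 3 were above the floor. With AAV206-GFP 1 to 2 were above the floor. In replicate 1 all 13 were above the floor. The 12 microglia and macrophage markers summed to 74.3 CPM in replicate 4 and to 77.2 CPM in replicate 3, against 42.2 to 50.1 CPM with AAV206-GFP. Of this list 10 were tested and 2 were called lower with AAV206-GFP, the complement genes C1qa and C1qc. Blood monocyte and neutrophil markers, 6 genes, summed to 22.1 CPM in replicate 1 and to at most 0.851 CPM elsewhere, and 4 B cell markers to 4.25 CPM and at most 0.898 CPM. Of the 6 monocyte and neutrophil genes, 3 were above the floor and 3 at 0 in replicate 1. In replicate 4, 1 was above the floor and 1 at 0. Müller glia markers, 6 genes, summed to 2678 and 3388 CPM in replicates 1 and 4 and to 2824 to 3596 CPM in the other libraries. The 6 endothelial markers summed to 191 to 211 CPM with AAV2-GFP and to 152 to 180 CPM with AAV206-GFP, and 2 of them, Kdr and Cldn5, were called lower. The part of these cell types in the GTPase levels of replicates 1, 3 and 4 and in the group difference was not tested.

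**Figure D4:**
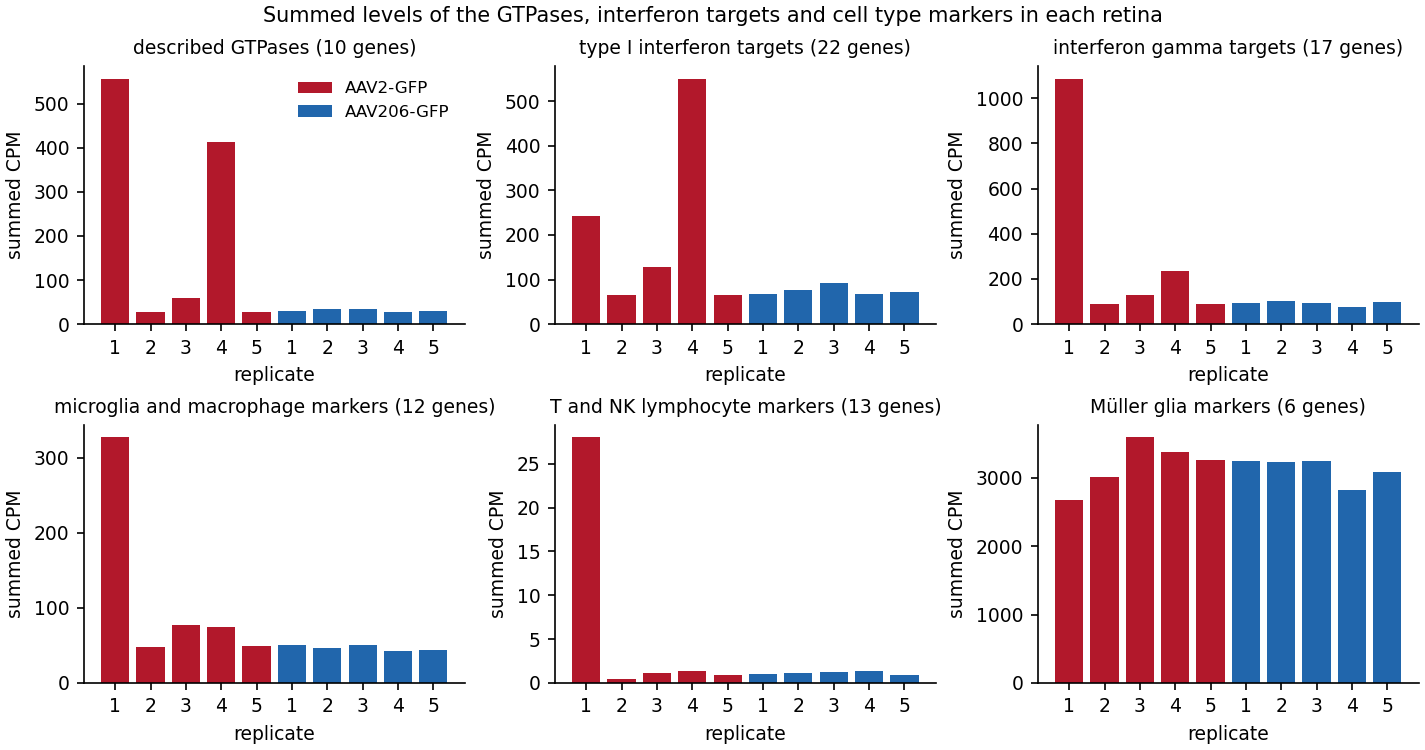
Summed level in CPM of the 10 GTPases, of interferon targets and of cell type markers in each retina, AAV2-GFP in red and AAV206-GFP in blue. AAV2-GFP replicates 1 and 4 hold 557 and 412 CPM of the GTPases, while the T and NK marker sum is 28.0 CPM in replicate 1 and 1.37 CPM in replicate 4.

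Other inducible GTPases, of the GBP, IRG, Mx and very large inducible families, were mostly above the AAV206-GFP range in AAV2-GFP replicates 1 and 4. Of 24 listed, 23 were in the table, 6 passed the filter and 4 were called lower, with a median log2 fold change of -2.26. Gbp4 had 33.5, 0.808, 1.86, 10.6 and 1.28 CPM with AAV2-GFP and 0.359 to 1.35 CPM with AAV206-GFP (log2 fold change -3.53, SE 0.88, edgeR adjusted p = 0.0179). Gbp9 was at 23.1, 3.23, 4.49, 23.8 and 3.76 CPM and at 2.33 to 3.20 CPM (log2 fold change -2.03, SE 0.51, edgeR adjusted p = 0.0198), and for this gene all AAV2-GFP mice were above all AAV206-GFP mice. Tgtp2, a near-identical copy of Tgtp1 with decimals in 9 libraries and uncertain for that reason, had a log2 fold change of -4.04 (SE 1.12, edgeR adjusted p = 0.0302). The fourth was Mx2, which is outside the rule for named genes and was named after its values were seen, with a log2 fold change of -2.07. Its counts were 10 to 70 with AAV2-GFP and 2 to 10 with AAV206-GFP, so it passed the filter through the group where it was high and its call supports nothing. The 2 tested genes that were not called were the very large GTPase genes Gvin1 and Gm4070 (edgeR adjusted p = 0.160 and 0.0781), also named after their values were seen. The Mx2 level in replicate 1 was 0.192 times that in replicate 4 (95% counting interval 0.0948 to 0.357). In replicate 1, 21 of the 23 were above every AAV206-GFP library, in replicate 4 18, in replicate 3 8, in replicate 2 5 and in replicate 5 4. Over all tested genes these shares were 22.6%, 26.0%, 29.5%, 19.0% and 20.7% in the same order, so the counts of replicates 3, 2 and 5 are not read as a result. Only 6 of the 23 passed the filter, and some values counted as above lay under the floor, such as Gm5431 in replicate 2 (0.0898 CPM). Without AAV2-GFP replicate 4 or AAV206-GFP replicate 4 the count of calls was 1, and without AAV2-GFP replicate 5 it was 6. The other 7 such fits gave 3 to 5.

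Genes for proteins of related folds with housekeeping roles, most of them GTPases, showed small differences in both directions. All 14 were tested, with a median log2 fold change of 0.06, and 2 were called higher and 1 lower. Over all tested genes 11.2% were called in either direction. Opa1, which fuses inner mitochondrial membranes, rose by 0.33 (SE 0.06, edgeR adjusted p = 0.00345), and Atl3, an atlastin of the endoplasmic reticulum, by 0.34 (SE 0.08, edgeR adjusted p = 0.00930). Ehd1, an endosomal recycling ATPase of the dynamin superfamily, fell by 0.32 (SE 0.08, edgeR adjusted p = 0.0144).

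Upstream of the GTPases, interferon transcripts were hardly seen. Ifng had 0.362 CPM in AAV2-GFP replicate 1, above the floor of 0.271 CPM there, and was at 0 in the other 9 libraries. Ifnb1, Ifna1, Ifna2, Ifna4, Ifnk, Ifnl2 and Ifnl3 were at 0 in all 10 libraries, which allows up to 0.232 to 0.274 CPM by counting error alone. The receptors of interferon gamma and of type I interferon were present in both groups, while Ifnlr1, a receptor of type III interferon, averaged 0.343 and 0.259 CPM, close to the floor. Ifngr1 had 30.9 ± 5.52 and 26.1 ± 2.60 CPM (SD, n = 5; log2 fold change -0.24, edgeR adjusted p = 0.171), and Ifnar1 57.9 ± 5.00 and 59.5 ± 3.93 CPM (0.04, edgeR adjusted p = 0.751). Of the 14 ligands and receptors 5 were tested and 0 called, at a median log2 fold change of -0.24.

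The signalling layer was lower in part. Of 13 kinases and transcription factors 10 were tested, 5 were called lower and 1 higher, with a median log2 fold change of -0.34. Irf9, a DNA-binding subunit of the complex that recognises ISREs, had 57.2, 24.4, 24.5, 61.8 and 20.4 CPM with AAV2-GFP and at most 19.2 CPM with AAV206-GFP, without overlap (log2 fold change -1.25, SE 0.27, edgeR adjusted p = 0.00821). Irf1, a factor that drives many GBP genes, had 32.0, 4.13, 4.72, 20.3 and 4.36 CPM and 3.37 to 4.40 CPM (-1.81, SE 0.50, edgeR adjusted p = 0.0303). The kinase Jak1 was the 1 gene called higher (0.31, SE 0.08, edgeR adjusted p = 0.0182). Stat2 and Irf8, outside the rule for named genes and named after their values were seen, were also called lower, at -0.53 and -2.59 (edgeR adjusted p = 0.0337 and 0.0417). The count of 6 fell to 2 without AAV2-GFP replicate 1 and to 3 without replicate 4. It was 2, 2, 1, 1 and 2 without AAV206-GFP replicates 1 to 5 in turn. Among 10 negative regulators 9 were tested and 1 called lower, Usp18 (-2.17, SE 0.59, edgeR adjusted p = 0.0285), at a list median of -0.15. Usp18 removes ISG15 and blocks the type I receptor, and it reached 15.7 CPM in AAV2-GFP replicate 4 against 4.79 CPM in replicate 1. That call was lost without AAV206-GFP replicate 1, 2 or 4.

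Some interferon targets outside the GTPases were called lower as well. Of 17 genes chosen as leaning to interferon gamma 8 were tested and 4 called lower, with a median log2 fold change of -2.32. Which interferon type induces each listed gene in retina was not tested. Tap1, the peptide transporter for MHC class I, had 65.6, 1.98, 5.03, 26.9 and 3.59 CPM with AAV2-GFP and 2.76 to 4.47 CPM with AAV206-GFP (-2.64, SE 0.73, edgeR adjusted p = 0.0304). Cd74 rested on replicate 1, which had 224 CPM against 0.427 to 3.55 CPM in the other AAV2-GFP mice (-5.47, SE 1.52, edgeR adjusted p = 0.0307). B2m, the light chain of MHC class I, followed with -2.35 (SE 0.66, edgeR adjusted p = 0.0331). None of this list was called without AAV2-GFP replicate 1 or without any single AAV206-GFP mouse. Without AAV2-GFP replicate 4, 2 were called, and 6 without replicate 3. Without replicate 2 or 5, 10 were called, where 11 rather than 8 passed the filter.

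Among 22 targets chosen as leaning to type I interferon 14 were tested and 7 called lower, with a median log2 fold change of -1.60. Bst2, the tetherin that holds virions at the membrane, had 17.9, 1.08, 4.02, 20.7 and 1.54 CPM with AAV2-GFP and 0.179 to 1.90 CPM with AAV206-GFP (-2.77, SE 0.71, edgeR adjusted p = 0.0218). Ifit1 had 10.9, 1.71, 7.42, 46.2 and 1.97 CPM and 1.43 to 2.85 CPM (-2.69, SE 0.71, edgeR adjusted p = 0.0246). Ifit3, with decimals in 10 libraries and thus uncertain, had a log2 fold change of -2.33 (SE 0.62, edgeR adjusted p = 0.0257). The 7 calls became 0 without AAV2-GFP replicate 4, 4 without replicate 1 and 11 without replicate 2. They became 1, 1, 4, 0 and 2 without AAV206-GFP replicates 1 to 5 in turn.

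Few partners of the GTPases were called. Of 17 genes of the autophagy conjugation machinery and its companions, which guide these GTPases to membranes, all were tested and 2 were called lower, at a median log2 fold change of -0.09. This is near the share of all tested genes called in either direction, 11.2% (5.30% lower). Gabarap, a ubiquitin-like protein of the ATG8 family, fell by 0.36 (SE 0.09, edgeR adjusted p = 0.0172), and Trim21, an antibody-binding ubiquitin ligase that interferon induces, by 1.59 (SE 0.45, edgeR adjusted p = 0.0320). The count was 1 without AAV2-GFP replicate 4 and without AAV206-GFP replicates 1, 2, 3 or 4, and 3 without AAV2-GFP replicates 2 or 5. Of 9 inflammasome genes downstream of GBP action, 3 passed the filter and 0 were called, at a median of -0.13. Their summed level was 22.4 CPM in AAV2-GFP replicate 1 and 5.10 to 7.42 CPM in the other 9 libraries, replicate 4 included.

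The genes whose levels across the 10 libraries lay nearest to the mean profile of the GTPases were found among 14950 genes with a symbol and a mean of at least 1 CPM. Distance was the root mean square difference of log2(CPM + 1) values, each gene centred on its own mean. Tap1 was nearest, at 0.240, followed by Gbp4 (0.310), the MHC class I gene H2-T23 (0.354), Gbp9 (0.392) and Bst2 (0.404). H2-T23 had 48.6, 4.76, 10.1, 28.5 and 4.87 CPM with AAV2-GFP and 3.90 to 6.47 CPM with AAV206-GFP, with a log2 fold change of -1.92 (edgeR adjusted p = 0.0280). Being chosen by this distance, these genes share the order of the mice by construction.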

How the data were processed

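The authors deposited estimated counts for each gene, unscaled. The tools STAR 2.7.10b and RSEM 1.3.1 and the build mm10 are named, without roles or parameters, per the submitters' processing notes. Of the values 5.95% carried decimals, and all were rounded before testing. Groups and replicate numbers came from the sample titles, and no library was left out. GENCODE M21 gave symbols and GRCm38 coordinates. Of the table's identifiers 4981 had no M21 name, and the annotation behind the counts is not given in the sources used here.

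AAV206-GFP was compared with AAV2-GFP in edgeR 4.0.16 (R 4.3.3): filterByExpr with a minimum count of 10, TMM factors, and a quasi-likelihood F test on all 10 libraries without covariates. SEs are the absolute log2 fold change over the square root of F. The edgeR p-values set the group difference against the spread between these mice, with a dispersion per gene shared by both groups. Alternatives used DESeq2 1.42.0, limma 3.58.1, other scalings and filters, and leaving out libraries. Within groups, libraries differed beyond sampling noise (chi-square per degree of freedom 3.68 to 22.3). Exact intervals at 95% and floors cover counting error only, since PCR reads without molecular identifiers are not independent molecules.

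The members and all lists were chosen with earlier results of these data known. Named genes were the 10 GTPases, up to 3 called genes with the smallest p of each pathway list, and the 5 nearest profiles. The values of 1 listed gene are not reported here, but it remains in the counts of its list. Simulated counts for 15346 genes of this comparison returned 82.7% of 2-fold and 58.2% of 1.5-fold changes, with 5 false among 143 calls. No rate was computed for genes with a spread as unequal between groups as that of the GTPases, so these figures do not bear on their calls.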

Additional observations from a re-analysis of the deposited data

Results flagged for a closer look

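In each result below 1 of the 5 mice stood off from the rest: its distance to the next mouse, as a share of the whole span of that group, exceeded the 95% critical value of Dixon's ratio. Of 100 group results examined 16 met this, and none of the 20 results of the 10 GTPases did. By chance 5 would if the values were independent and normal. Many of the genes were picked by their p in these data, and some sums contain genes that are also counted singly. The excess of 16 over 5 is therefore not read as a result. In the 10 AAV2-GFP results of these genes, 2 mice were high together.

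AAV2-GFP replicate 1 was high for Tgtp2, at 49.1 CPM where the remaining AAV2-GFP mice had at most 9.92 CPM (ratio 0.798), for Cd74 at 224 CPM against 0.427 to 3.55 CPM (0.986) and for B2m at 278 CPM against 12.6 to 54.1 CPM (0.844). Its summed interferon gamma targets were 1088 CPM against 87.7 to 237 CPM (0.851), and its inflammasome genes 22.4 CPM against 5.10 to 7.42 CPM (0.866). Microglia and macrophage markers summed to 327 CPM there against 48.1 to 77.2 CPM (0.896), T and NK markers to 28.0 CPM against 0.449 to 1.37 CPM (0.967), B cell markers to 4.25 CPM against at most 0.898 CPM (0.789), and blood monocyte and neutrophil markers to 22.1 CPM against at most 0.851 CPM (0.961).

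AAV2-GFP replicate 4 was high for Usp18 (15.7 against 1.44 to 4.79 CPM, ratio 0.765), Ifit1 (46.2 against 1.71 to 10.9 CPM, 0.793) and Ifit3 (128 against 6.75 to 32.8 CPM, 0.785). AAV2-GFP replicate 3 was high for Gabarap (77.1 against 55.0 to 58.2 CPM, 0.854), and AAV2-GFP replicate 5 for the lens markers (36.3 against 15.2 to 20.8 CPM, 0.734). In the AAV206-GFP group, replicate 3 was high for Irf1 (4.40 against 3.37 to 3.65 CPM, 0.735), and replicate 4 had 0.179 CPM of blood monocyte and neutrophil markers, under the floor, where the others had 0.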

How the results depend on the processing

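The count of 8 GTPases called lower was the same with RLE, upper-quartile or library-size scaling, with the stricter filter and with unrounded values, and was 10 without the filter and with DESeq2. It was 0 with limma-voom, with limma-voom and sample weights, with edgeR's robust dispersions, without AAV2-GFP replicates 1 and 4 together, and in the exact permutation test per gene, which was added after the data were seen. It ranged from 1 to 9 over the 10 fits that left out 1 mouse. Replicate numbers did not pair the mice: same-numbered deviations correlated at -0.0518 to 0.0405, and 0 of 5 libraries matched their own number best. With the replicate number as a block, 1 GTPase, Gbp3, was called. Adjusted p-values of the 8 GTPases were 0.0764 to 0.150 with robust dispersions and 0.141 to 0.399 with limma-voom. Without AAV2-GFP replicates 1 and 4, the log2 fold changes of Igtp (0.35) and Irgm1 (0.21) reversed. The cause of these shifts was not tested. The number of GTPases without overlap between groups, 0, ranged from 0 to 1 when 1 mouse was left out.

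Calls on the other lists moved as follows, and the number of genes tested moved with the filter. Without it 22 other inducible GTPases and 16 interferon gamma targets were tested, against 6 and 8 with it. Over all tested genes, 11.2% were called in either direction with the filter and 6.42% without it. The share was 12.6% with DESeq2, 10.6% with limma-voom, 13.9% with its sample weights and 11.5% with robust dispersions. It was 6.98% with the block and 6.18% without AAV2-GFP replicates 1 and 4. Other inducible GTPases went from 4 to 13 without the filter, 2 with the stricter filter, 8 with DESeq2, 0 with either limma-voom fit, 1 with robust dispersions, 1 with the block and 0 without AAV2-GFP replicates 1 and 4 (1 to 6 leaving out 1 mouse). Kinases and transcription factors went from 6 to 2 with limma-voom, 3 with sample weights, 1 with robust dispersions, 3 with the block and 2 without that pair (1 to 6). Negative regulators went from 1 to 2 with library size only, without the filter, with the stricter filter and with DESeq2, and to 0 with either limma-voom fit, the block and without that pair (0 to 1). Interferon gamma targets went from 4 to 13 without the filter, 0 with either limma-voom fit, robust dispersions or without that pair, and 1 with the block (0 to 10). Type I targets went from 7 to 0 with either limma-voom fit, robust dispersions, the block or without that pair (0 to 11). Conjugation partners went from 2 to 1 with limma-voom and robust dispersions (1 to 3), and inflammasome genes from 0 to 1 without the filter and with DESeq2. Depth limits Iigp1 and Ifi47, which lie near the floor in most libraries.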

Other observations

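Markers of tissue that can be carried along in dissection also differed between the groups. Of 5 erythrocyte genes, all tested, 4 were called higher with AAV206-GFP in edgeR, and their sum was 67.8 to 85.8 CPM with AAV2-GFP and 101 to 319 CPM with AAV206-GFP. Of 6 lens genes 4 were tested and 2 called lower. AAV2-GFP replicates 1 and 4, the retinas high in the GTPases, had erythrocyte sums of 67.8 and 82.5 CPM, and the other AAV2-GFP mice 73.3 to 85.8 CPM. The retinal pigment epithelium markers, 6 genes, summed to 11.4 to 37.3 CPM with AAV2-GFP and to 14.1 to 23.5 CPM with AAV206-GFP, and 1 of 5 tested was called lower.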
